A study of Mus musculus with 9 samples.

Results

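Matrix proteases and their inhibitors were followed through brown fat, white fat and the soleus, a slow muscle of the hind limb. The genes were those whose symbol is Timp, Mmp, Adam, Adamts or Adamtsl followed by a digit. Of 17753 genes in the expression matrix 79 bore such a name, and 33 of these reached at least 1 FPKM, the fragment count scaled by transcript length and library size, in no fewer than 3 libraries, the level at which a gene was tested. These were 4 of 4 Timp, 9 of 22 Mmp, 7 of 29 Adam, 9 of 19 Adamts and 4 of 5 Adamtsl genes. RNA sequencing libraries of brown fat (n = 3), white fat (n = 3) and soleus (n = 3) came from male mice of the C57BL/6J strain at 3 months of age, with no treatment, transgene or mutation named. The labels give 3 mice and number the libraries of each tissue, but not which libraries share a mouse, whether animals were pooled or which depot the white fat was. The p-values below therefore measure the spread between these libraries.

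Metalloproteases of the matrix use a zinc ion to cut proteins outside the cell. The matrix metalloproteinases (Mmp) are made as inactive precursors and cut collagens, laminins, elastin and other matrix proteins. The Adam proteases sit in the cell membrane and release growth factors, cytokines and receptors from the cell surface, while the secreted Adamts proteases process procollagens and cut large proteoglycans. Adamts-like proteins share the ancillary domains of Adamts proteases but have no protease domain. Tissue inhibitors of metalloproteinases (Timp) bind the active site of these enzymes. In fat this system remodels the matrix around growing and shrinking fat cells, and in muscle it works on the connective tissue and basement membrane around the fibres.

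The sum of FPKM over all genes ran between 214066 and 353399 per library, and 8487 to 9305 genes reached 1 FPKM. Read totals were not analysed here; low values gave relative depths of 1.53 to 2.77 in brown fat, 1 to 3.56 in white fat and 1.44 to 2.35 in soleus, with the shallowest library set to 1. Log-scale profiles of libraries of the same tissue correlated at 0.99 to 0.996 and those of different tissues at 0.54 to 0.813. Defining markers followed the labels, with Ucp1 at 3685 FPKM in brown fat. Some libraries carried markers of another tissue at differing levels. The summed FPKM of 6 of 9 listed fast muscle genes was 34.5, 270.1 and 142 in brown fat 1, 2 and 3. That of 9 brown fat cell genes was 84.8, 47.6 and 221 in white fat 1, 2 and 3. The sum of these 9 genes is not particular to brown fat, since it was 14999 to 16310 there and 7484.5 to 9527.6 in soleus. Single genes of the list differed from the sum, and Ucp1 averaged 2.06 FPKM in soleus. In brown fat against soleus 6 of the 9 were higher and 0 lower (limma, Benjamini-Hochberg adjusted p under 0.05). Of all tested genes 52.9% and 25.6% were called there. The sum of 7 white fat cell genes was 165, 70.1 and 34.1 in soleus 1, 2 and 3. Fabp4 was listed at 0 in both fats and Acta1, Ckm, Mb and Tnnt3 at 0 in soleus, although these are abundant transcripts there, so a gene at 0 is described below only as listed at 0.

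White fat stood apart from both other tissues in this gene group. Summed over the 79 genes, the level was 167 ± 9.63 FPKM in brown fat, 668 ± 33.4 FPKM in white fat and 177 ± 8.70 FPKM in soleus (mean ± SD, n = 3 each). Of the 33 tested genes, brown fat held the highest mean of 5, white fat of 23 and soleus of 5, which is 15.2%, 69.7% and 15.2%, whereas all 9913 tested genes divided into 38.0%, 37.4% and 24.6%. In brown fat against white fat 4 of the 33 were higher and 25 lower (limma, Benjamini-Hochberg adjusted p under 0.05), where 38.0% and 34.8% of all tested genes were called higher and lower. Brown fat against soleus gave 14 higher and 12 lower, where 52.9% and 25.6% of all tested genes were called. White fat against soleus gave 27 higher and 5 lower, where 54.5% and 29.7% of all were called. The median log2 fold change of the 33 genes was -1.08, 0.03 and 1.29 in these comparisons, beside 0.03, 0.29 and 0.35 over all tested genes. The scaling of the libraries bears on these splits. Of all calls in brown fat against white fat 52.2% were higher as reported and 22.6% after TPM rescaling, in brown fat against soleus 67.4% as reported and 47.5% by median of ratios, and in white fat against soleus 64.7% as reported, 50.1% by median of ratios and 78.8% after TPM rescaling. All fold changes are on the log2(FPKM + 1) scale, where changes of weakly expressed genes appear smaller than they are.

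**Figure D1:**
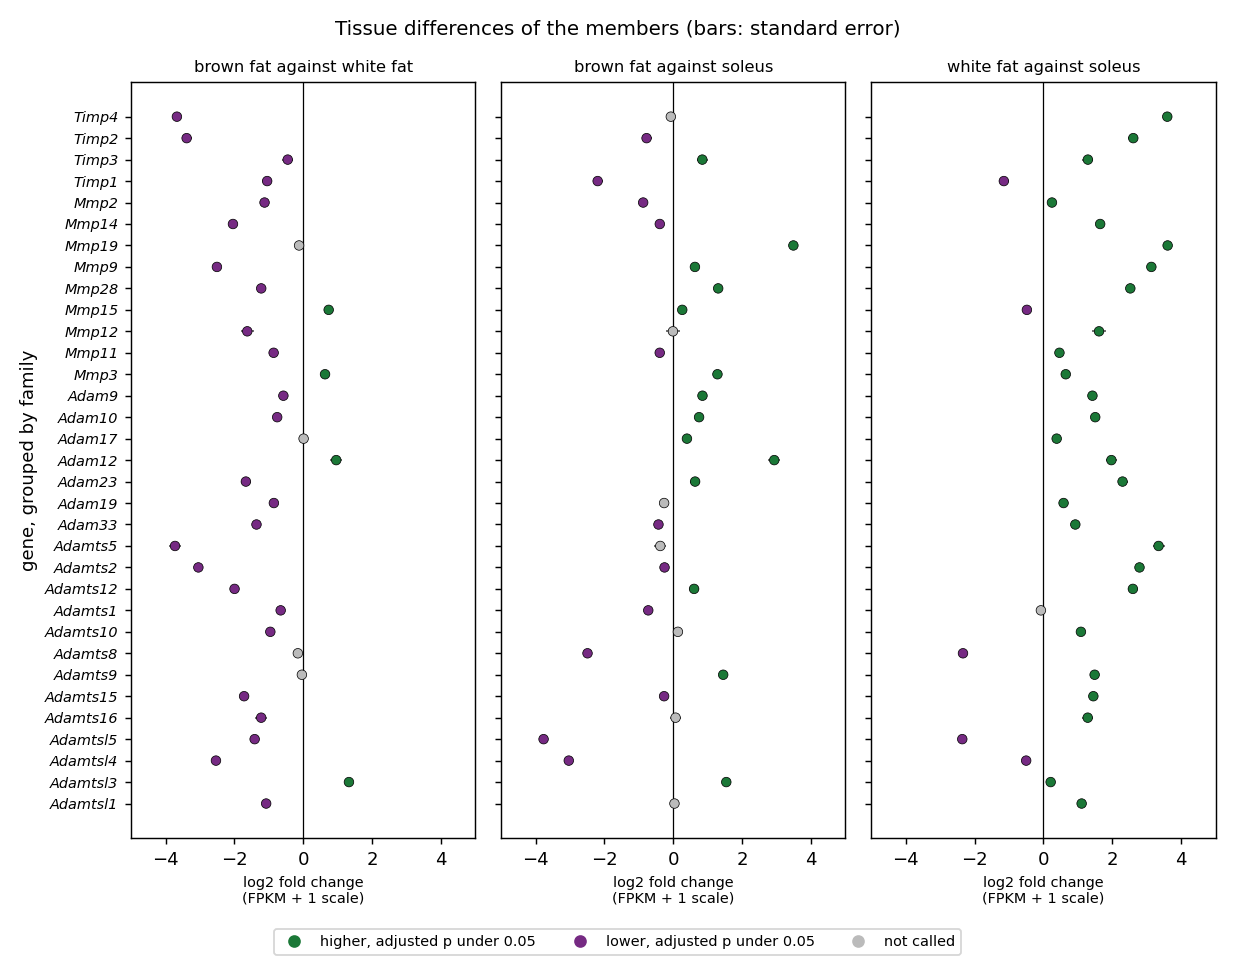
Log2 fold change of each of the 33 tested genes (horizontal axis, log2(FPKM + 1) scale; bars, standard error) in brown fat against white fat, brown fat against soleus and white fat against soleus; genes run down the page by family and colour gives the call. In brown fat against white fat 25 points were called left of 0 and 4 right of it, and in white fat against soleus 27 were called right of 0 and 5 left of it.

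Because a gene could reach the tested level through one tissue alone, the count was also taken over the others. The tested level was reached through white fat alone by Adam23, Adam33, Adamts15, Adamts16, Adamtsl1, Mmp9 and Mmp12, through brown fat alone by Adamtsl3 and Mmp3, and through soleus alone by Adamts8. These 10 genes had to be high in that tissue. Among the other 23, brown fat against white fat gave 2 higher and 18 lower, brown fat against soleus 10 and 9, and white fat against soleus 18 and 4. All tested genes gave 38.0% and 34.8%, 52.9% and 25.6%, and 54.5% and 29.7%. These shares were not reduced in the same way as the 23 genes. How far the 23 genes depart from a matching set of tested genes was therefore not tested. The 3 comparisons share libraries and are not independent of each other.

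Markers of some other cell types moved with the white fat levels and those of others did not. The summed FPKM of 11 of 12 listed macrophage markers was 52.8 to 62.7 in brown fat, 522 to 641 in white fat and 36.7 to 51.1 in soleus, and all 11 were lower in brown fat against white fat. The sum of 8 of 9 mesothelium markers, which mark the lining of body cavities, was 1.24 to 1.46 in brown fat, 76.1 to 114 in white fat and 0.348 to 2.42 in soleus; Wt1, Krt8 and Bnc1 were listed at 0 in brown fat. The sum of 8 of 10 markers of fibroblasts and fat progenitors was 249 to 277 in brown fat, 1537 to 1628 in white fat and 385 to 470 in soleus. All 8 mesothelium and all 8 fibroblast markers were lower in brown fat against white fat. Of 11 epididymis genes 9 were listed at 0 in white fat and the sum did not exceed 0.365 FPKM in any library. The endothelium sum went the other way. Endothelium markers, 8 of 9, summed to 112 to 125 in brown fat, 70.1 to 108 in white fat and 55.0 to 61.9 in soleus. Single markers were not all alike. In brown fat against white fat 5 of the 8 were higher, 1 was lower and 2 were not called, where 38.0% and 34.8% of all tested genes were called higher and lower. The 7 mural cell markers summed to 107 to 119 in brown fat, 78.9 to 85.6 in white fat and 123 to 139 in soleus. They were split, since of 6 tested in brown fat against white fat 3 were higher and 2 lower. Their median log2 fold change there was 0.07, beside 0.03 over all tested genes. Schwann cell markers, 6 of 7, summed to 81.4 to 97.7 in brown fat, 70.5 to 86.3 in white fat and 31.7 to 79.4 in soleus. Mast cell, neutrophil and lymphocyte sums did not exceed 23.4 FPKM in any library and were highest in white fat. Few of these markers were tested. In brown fat against white fat 1 mast cell marker was higher and 3 lower, and 1 neutrophil marker was higher and 2 lower. The 1 tested lymphocyte marker was lower. The part of these cell types in the results below was not tested. In whole tissue, fewer cells of a type and less RNA per cell cannot be told apart.

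**Figure D2:**
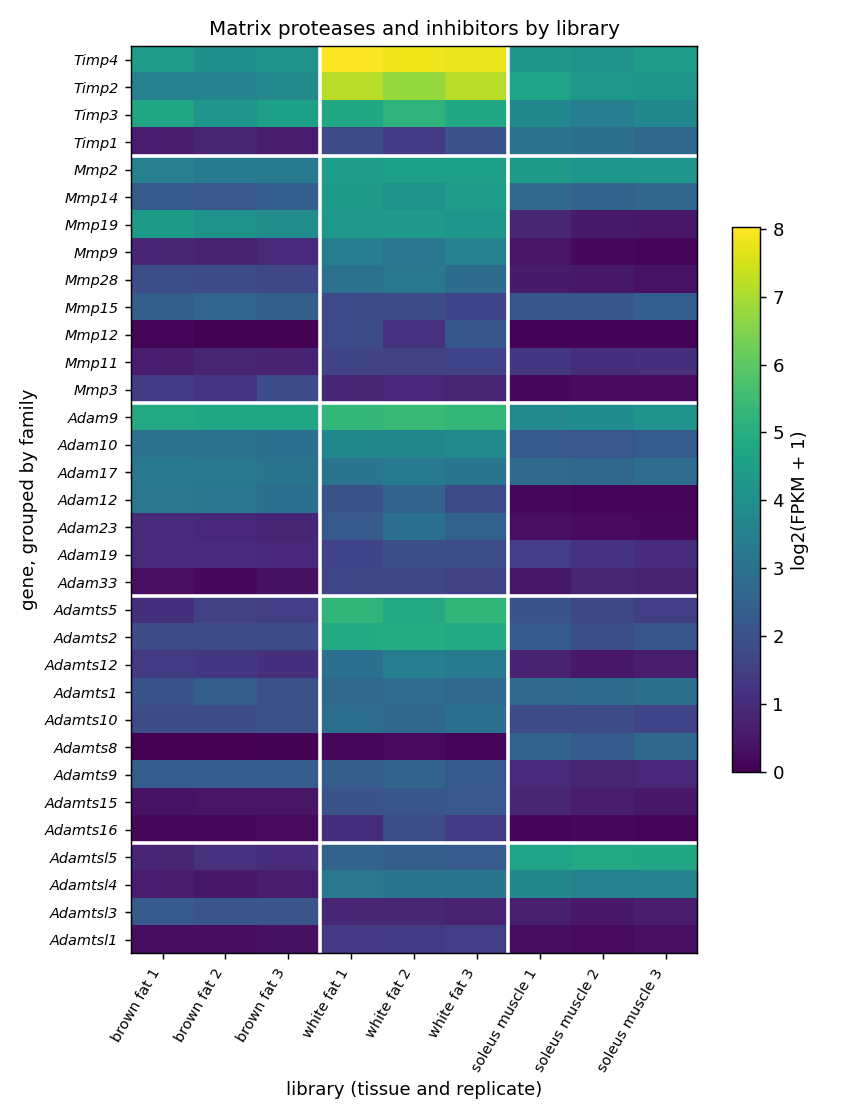
Level of the 33 tested genes in each of the 9 libraries as log2(FPKM + 1) (colour scale), with genes down the page by family and libraries across the page from brown fat through white fat to soleus. The 3 libraries of a tissue resemble each other, and the white fat columns hold the highest mean of 23 genes.

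The Timp inhibitors gave the largest sum of the 5 families in white fat and soleus. Their summed level was 56.9, 44.1 and 52.2 FPKM in brown fat, 429, 367 and 384 FPKM in white fat and 62.0, 51.3 and 56.5 FPKM in soleus. All 4 were lower in brown fat against white fat, where 34.8% of all tested genes were lower. Timp1 was highest in soleus and the other 3 in white fat, so that the tissues differed in the make-up of the inhibitors as well as in their amount.

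The Timp promoters are shown because the 4 inhibitors do the same kind of work with unlike tissue levels. Each line holds the 250 bases before the annotated start, 5′ to 3′ on the gene's strand, from RefSeq on GRCm38.p6; the FPKM values rest on mm9, so these positions are not positions in the authors' build. Capitals mark matches, on either strand, to the GC box (letters GGGCGG), the CCAAT box (letters CCAAT), the TATA motif (letters TATAAA) and the AP-1 motif (letters TGANTCA).
Timp1 (chrX:20869916-20870165, plus strand): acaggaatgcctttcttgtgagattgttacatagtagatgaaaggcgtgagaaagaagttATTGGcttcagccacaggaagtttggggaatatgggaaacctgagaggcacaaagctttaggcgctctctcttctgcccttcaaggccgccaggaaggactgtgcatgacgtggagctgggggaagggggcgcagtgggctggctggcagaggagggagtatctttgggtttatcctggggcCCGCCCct
Timp2 (chr11:118355412-118355661, minus strand): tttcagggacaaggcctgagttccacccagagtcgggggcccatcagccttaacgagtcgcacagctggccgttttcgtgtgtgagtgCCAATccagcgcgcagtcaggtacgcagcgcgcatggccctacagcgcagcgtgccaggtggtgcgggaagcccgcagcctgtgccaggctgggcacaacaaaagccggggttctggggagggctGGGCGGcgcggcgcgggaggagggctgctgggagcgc
Timp3 (chr10:86300162-86300411, plus strand): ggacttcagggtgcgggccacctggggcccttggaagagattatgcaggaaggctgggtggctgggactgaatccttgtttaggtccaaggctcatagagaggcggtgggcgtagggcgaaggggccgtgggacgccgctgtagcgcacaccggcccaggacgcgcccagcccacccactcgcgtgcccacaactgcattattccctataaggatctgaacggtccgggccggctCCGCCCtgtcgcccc
Timp4 (chr6:115252206-115252455, minus strand): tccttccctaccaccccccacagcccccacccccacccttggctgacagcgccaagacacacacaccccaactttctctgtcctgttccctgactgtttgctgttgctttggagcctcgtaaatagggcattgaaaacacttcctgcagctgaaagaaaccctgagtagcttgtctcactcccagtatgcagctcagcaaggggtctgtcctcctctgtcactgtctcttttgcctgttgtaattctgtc
The windows of Timp1 and Timp2 each hold 1 GC box and 1 CCAAT box, that of Timp3 holds 1 GC box, and that of Timp4 holds none of the 4 motifs. G and C make up 54.4%, 68.0%, 65.6% and 53.6% of the windows of Timp1, Timp2, Timp3 and Timp4.

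Timp4, an inhibitor known for its high level in fat and heart, had 20.5, 15.3 and 16.1 FPKM in brown fat, 259, 222 and 214 FPKM in white fat and 17.8, 16.3 and 20.6 FPKM in soleus. All white fat libraries lay above all others, while brown fat and soleus overlapped. Its log2 fold change was -3.67 (SE 0.13, adjusted p = 2e-09) in brown fat against white fat and 3.60 (adjusted p = 7.1e-10) in white fat against soleus. Brown fat against soleus gave -0.07 (adjusted p = 0.61), and Timp4 was called lower there under median of ratios scaling (-0.50, adjusted p = 0.0029). The Timp4 gene lies within Syn2 on the opposite strand, and Syn2 averaged 4.85, 21.6 and 2.04 FPKM in brown fat, white fat and soleus; whether reads were counted by strand is not given in the sources used here, so reads of the overlap cannot be told apart. Timp1 and Timp3 lie the same way against Syn1 and Syn3, whose means did not exceed 0.255 FPKM.

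Timp2, which blocks Mmp2 and also carries its precursor to Mmp14 at the cell surface, had 10.5, 10.9 and 12.8 FPKM in brown fat, 141, 107 and 140.5 FPKM in white fat and 24.7, 18.5 and 18.0 FPKM in soleus. The 3 tissues did not overlap, with brown fat lowest. Its log2 fold change was -3.39 (SE 0.14, adjusted p = 7.2e-09) in brown fat against white fat, -0.78 (adjusted p = 0.00047) in brown fat against soleus and 2.61 (adjusted p = 2.1e-08) in white fat against soleus.

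Timp3 binds to the matrix and inhibits Adam17 and several Adamts proteases besides the Mmp enzymes. It had 25.4, 17.1 and 22.7 FPKM in brown fat, 26.7, 36.3 and 27.1 FPKM in white fat and 12.4, 9.87 and 12.5 FPKM in soleus. The fats lay close together, with every white fat library above every brown fat library, and both lay above soleus. Its log2 fold change was -0.45 (SE 0.16, adjusted p = 0.025) in brown fat against white fat, but the adjusted p was 0.10 without brown fat 2 and 0.099 without white fat 2. It was 0.84 (adjusted p = 0.00056) in brown fat against soleus and 1.29 (adjusted p = 1.7e-05) in white fat against soleus.

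Timp1, the inhibitor best known for its induction by injury and cytokines, differed from the other Timp genes in being lower in white fat against soleus. Like them, it was lower in brown fat against white fat. It had 0.543, 0.778 and 0.518 FPKM in brown fat, 2.55, 1.64 and 2.95 FPKM in white fat and 7.23, 6.72 and 5.34 FPKM in soleus. The tissues did not overlap, and soleus was highest. The log2 fold change was -1.05 (SE 0.15, adjusted p = 8.5e-05) in brown fat against white fat, -2.20 (adjusted p = 1.5e-07) in brown fat against soleus and -1.15 (adjusted p = 2.7e-05) in white fat against soleus.

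**Figure D3:**
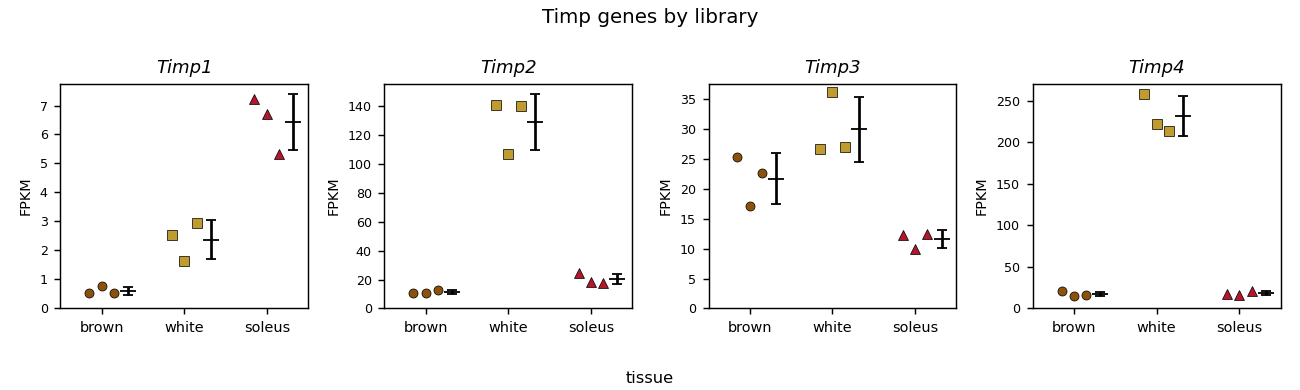
FPKM of Timp1, Timp2, Timp3 and Timp4 in each library (points) with the tissue mean (line) and SD (bars), brown fat left, white fat in the middle and soleus right; each panel has its own vertical axis from 0. Timp2 and Timp4 are high in white fat alone, with means of 129 and 232 FPKM, Timp3 is higher in both fats than in soleus, and Timp1 is highest in soleus at 6.43 FPKM.

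As shares of the summed Timp level, which is per length and can be set side by side between genes, brown fat was made up of 42.3% Timp3, 33.9% Timp4, 22.6% Timp2 and 1.24% Timp1. White fat was made up of 58.8% Timp4, 32.8% Timp2, 7.72% Timp3 and 0.603% Timp1. Soleus was made up of 35.9% Timp2, 32.3% Timp4, 20.5% Timp3 and 11.4% Timp1. Timp3 was thus the leading inhibitor of brown fat, Timp4 that of white fat, and Timp2 and Timp4 lay close together in soleus. The ratio of summed Timp to summed Mmp level was 1.23 ± 0.115 in brown fat and 4.40 ± 0.232 in white fat, with 1.87 ± 0.0584 in soleus (mean ± SD, n = 3 each).

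**Figure D4:**
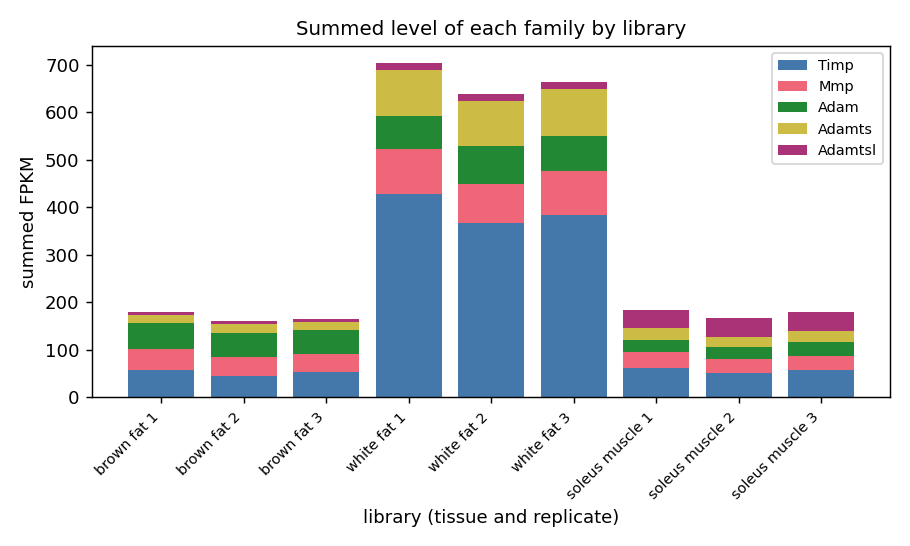
Summed FPKM of the Timp, Mmp, Adam, Adamts and Adamtsl families in each library, stacked, with libraries in the order brown fat, white fat, soleus. The Timp sum of 367 to 429 FPKM makes up the largest part of each white fat bar, and the Adamtsl sum is largest in soleus at 39.4 FPKM on average.

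Among the 9 tested Mmp genes, brown fat against white fat gave 2 higher and 6 lower, brown fat against soleus 5 and 3, and white fat against soleus 8 and 1. In brown fat against soleus these are 55.6% and 33.3%, near the 52.9% and 25.6% of all tested genes. Brown fat against white fat gave 22.2% and 66.7%, where all tested genes gave 38.0% and 34.8%. White fat against soleus gave 88.9% and 11.1%, where all gave 54.5% and 29.7%. Mmp9 and Mmp12 reached the tested level through white fat alone and Mmp3 through brown fat alone. The Mmp shares are therefore partly set by that choice. The Mmp family sum was 41.4 ± 2.59 FPKM in brown fat, 89.4 ± 6.22 FPKM in white fat and 30.3 ± 2.12 FPKM in soleus. Mmp19 led in brown fat and Mmp2 in white fat and soleus. In brown fat Mmp19 made up 40.6% and Mmp2 23.0% of the family sum. White fat had 20.6% Mmp19, 24.7% Mmp2 and 21.1% Mmp14, and soleus had 1.92% Mmp19 and 60.6% Mmp2.

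Mmp2 and Mmp14 form a pair in which membrane-bound Mmp14 activates Mmp2, a gelatinase. Mmp2 had 10.3, 9.17 and 9.20 FPKM in brown fat, 21.3, 22.2 and 22.4 FPKM in white fat and 19.8, 17.6 and 17.7 FPKM in soleus. Brown fat was lowest with no overlap, with a log2 fold change of -1.13 (SE 0.07, adjusted p = 1.7e-07) against white fat and -0.88 (adjusted p = 9e-07) against soleus. White fat against soleus gave 0.25 (adjusted p = 0.0088), which became -0.17 (adjusted p = 0.063) under median of ratios scaling. Mmp14 had 3.74, 3.48 and 4.23 FPKM in brown fat, 19.9, 16.4 and 20.3 FPKM in white fat and 5.87, 4.90 and 5.22 FPKM in soleus. White fat was highest, with a log2 fold change of -2.04 (SE 0.10, adjusted p = 1.9e-08) in brown fat against white fat, -0.39 (adjusted p = 0.0039) in brown fat against soleus and 1.65 (adjusted p = 4.5e-08) in white fat against soleus.

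Mmp19, a secreted protease that cuts basement membrane proteins, was shared by the fats. It had 19.6, 16.2 and 14.7 FPKM in brown fat, 18.3, 19.3 and 17.4 FPKM in white fat and 0.800, 0.502 and 0.464 FPKM in soleus. The fats overlapped, and both lay far above soleus. Its log2 fold change was -0.12 (SE 0.11, adjusted p = 0.35) in brown fat against white fat, where TPM rescaling gave -0.71 (adjusted p = 0.002) and quantile normalization -0.25 (adjusted p = 0.046). Against soleus it was 3.49 (adjusted p = 3.8e-10) in brown fat and 3.61 (adjusted p = 3.3e-10) in white fat.

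Mmp9, the second gelatinase, and Mmp28, also called epilysin, were highest in white fat. Mmp9 had 0.804, 0.725 and 0.963 FPKM in brown fat, 9.84, 7.95 and 10.6 FPKM in white fat and 0.346, 0.136 and 0.0832 FPKM in soleus. The tissues did not overlap, and the log2 fold change was -2.51 (SE 0.11, adjusted p = 1.2e-08) in brown fat against white fat and 0.63 (adjusted p = 0.00043) in brown fat against soleus. White fat against soleus gave 3.14 (adjusted p = 1e-09). Mmp28 had 2.76, 2.52 and 2.24 FPKM in brown fat, 7.21, 8.28 and 6.15 FPKM in white fat and 0.483, 0.476 and 0.305 FPKM in soleus. Its 3 tissues did not overlap either, with a log2 fold change of -1.22 (SE 0.10, adjusted p = 1.4e-06) in brown fat against white fat, 1.30 (adjusted p = 6e-07) in brown fat against soleus and 2.53 (adjusted p = 2.5e-09) in white fat against soleus.

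The other tested Mmp genes had means under 5 FPKM in every tissue. Mmp12, the elastase of macrophages, averaged 0.0490 FPKM in brown fat, 2.37 FPKM in white fat and 0.0569 FPKM in soleus. The log2 fold change was -1.63 (adjusted p = 2e-05) in brown fat against white fat and 1.62 (adjusted p = 1.3e-05) in white fat against soleus. Its white fat libraries ran from 1.21 FPKM in white fat 2 to 3.42 FPKM in white fat 3, and the macrophage marker sum was 522 and 641 in these libraries; their part in the Mmp12 level was not tested. Mmp11, a stromelysin of connective tissue cells, averaged 0.679, 2.04 and 1.21 FPKM in brown fat, white fat and soleus (-0.86, adjusted p = 7.1e-06, in brown fat against white fat). Mmp11 lies beside Chchd10 on the opposite strand with an overlap, and Chchd10 averaged 522 FPKM in brown fat, 19.3 FPKM in white fat and 457 FPKM in soleus, so the Mmp11 values are uncertain. Mmp15 and Mmp3 were the Mmp genes called higher in brown fat against white fat. Mmp15, a membrane-bound Mmp, averaged 4.64, 2.38 and 3.72 FPKM in brown fat, white fat and soleus (log2 fold change 0.74, adjusted p = 4.8e-05, in brown fat against white fat). Its value in brown fat against soleus, 0.26 (adjusted p = 0.032), became -0.10 (adjusted p = 0.32) under median of ratios scaling, and the call was lost without brown fat 2 (adjusted p = 0.11), soleus 1 (0.11) or soleus 2 (0.10) and with a replicate block (0.052). Mmp3, also called stromelysin 1, averaged 1.85 FPKM in brown fat, 0.809 FPKM in white fat and 0.153 FPKM in soleus, and its log2 fold change in brown fat against white fat was 0.63 (adjusted p = 0.001).

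Of the 7 tested Adam genes 1 was higher and 5 lower in brown fat against white fat, 5 were higher and 1 lower in brown fat against soleus, and all 7 were higher in white fat against soleus. These are 14.3% and 71.4%, where all tested genes gave 38.0% and 34.8%, then 71.4% and 14.3%, where all gave 52.9% and 25.6%, and 100% and 0%, where all gave 54.5% and 29.7%. Adam23 and Adam33 reached the tested level through white fat alone, so the Adam shares are partly set by that choice. The family sum was 51.9 ± 2.71 FPKM in brown fat, 74.3 ± 5.02 FPKM in white fat and 26.8 ± 2.07 FPKM in soleus. Adam9, a broadly expressed membrane protease, made up 50.5%, 53.4% and 52.8% of it. Adam9 had 27.5, 25.5 and 25.6 FPKM in brown fat, 38.4, 41.7 and 38.8 FPKM in white fat and 12.6, 14.0 and 16.0 FPKM in soleus. No library of one tissue overlapped another, and the log2 fold change was -0.58 (SE 0.09, adjusted p = 0.00015) in brown fat against white fat, 0.85 (adjusted p = 5.4e-06) in brown fat against soleus and 1.42 (adjusted p = 5.6e-08) in white fat against soleus.

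Adam10 and Adam17 are the main sheddases of the cell surface, which release Notch receptors and tumour necrosis factor among others. Adam10 had 7.28, 7.15 and 6.58 FPKM in brown fat, 12.4, 11.9 and 13.3 FPKM in white fat and 3.65, 3.57 and 4.09 FPKM in soleus. The tissues did not overlap, with a log2 fold change of -0.76 (SE 0.07, adjusted p = 4.4e-06) in brown fat against white fat, 0.75 (adjusted p = 3.6e-06) in brown fat against soleus and 1.51 (adjusted p = 9.4e-09) in white fat against soleus. Adam17 had 8.40, 8.40 and 7.53 FPKM in brown fat, 7.50, 8.96 and 7.74 FPKM in white fat and 5.91, 5.50 and 6.37 FPKM in soleus. The fats overlapped, with a log2 fold change of 0.0091 (adjusted p = 0.93) that was below 0 under 4 other scalings and was called lower after TPM rescaling (-0.56, adjusted p = 0.0012). Against soleus it was called at 0.40 (adjusted p = 0.0013) in brown fat and 0.39 (adjusted p = 0.0014) in white fat. Both calls were lost under upper quartile, quantile and median of ratios scaling, the last with adjusted p = 0.96 in brown fat and 0.93 in white fat. Adam17 overlaps Iah1 on the opposite strand, which averaged 66.0, 81.7 and 4.64 FPKM in brown fat, white fat and soleus.

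Adam12 was highest in brown fat and Adam23 in white fat. Adam12, or meltrin alpha, is known from fusing muscle precursors and from forming fat cells. It had 8.12, 7.93 and 6.54 FPKM in brown fat, 3.18, 4.93 and 2.39 FPKM in white fat and 0.163, 0.0678 and 0.114 FPKM in soleus. Brown fat was highest with no overlap, with a log2 fold change of 0.96 (SE 0.17, adjusted p = 0.00041) in brown fat against white fat and 2.93 (adjusted p = 3.7e-08) in brown fat against soleus. White fat against soleus gave 1.97 (adjusted p = 7.8e-07). Adam23, an adhesion protein without protease activity, had 0.933, 0.846 and 0.779 FPKM in brown fat, 3.73, 6.69 and 4.59 FPKM in white fat and 0.262, 0.165 and 0.159 FPKM in soleus. White fat was highest, and the log2 fold change was -1.67 (SE 0.14, adjusted p = 1.6e-06) in brown fat against white fat, 0.63 (adjusted p = 0.0021) in brown fat against soleus and 2.30 (adjusted p = 6.2e-08) in white fat against soleus. Adam19, or meltrin beta, averaged 0.933, 2.51 and 1.34 FPKM and Adam33 averaged 0.218, 2.12 and 0.649 FPKM in brown fat, white fat and soleus. Both were lower in brown fat against white fat and higher in white fat against soleus. Adam33 was also lower in brown fat against soleus (-0.43, adjusted p = 0.0018), where Adam19 gave -0.27 (adjusted p = 0.051) and was called lower in 8 other settings, among them median of ratios scaling (-0.52, adjusted p = 0.0032) and the fit without soleus 3 (-0.36, adjusted p = 0.017). The Adam19 call in white fat against soleus was lost under quantile normalization (0.18, adjusted p = 0.17).

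None of the 9 tested Adamts genes was higher and 7 were lower in brown fat against white fat; 2 were higher and 4 lower in brown fat against soleus, and 7 were higher and 1 lower in white fat against soleus. The shares lower were 77.8%, 44.4% and 11.1%, where 34.8%, 25.6% and 29.7% of all tested genes were lower. The shares higher were 0%, 22.2% and 77.8%, where 38.0%, 52.9% and 54.5% of all tested genes were higher. Adamts15 and Adamts16 reached the tested level through white fat alone and Adamts8 through soleus alone. The Adamts shares are therefore partly set by that choice. The family sum was 17.8 ± 0.934 FPKM in brown fat, 96.2 ± 2.34 FPKM in white fat and 23.7 ± 1.91 FPKM in soleus. Adamts5 made up 9.18% and Adamts2 14.8% of the brown fat sum. White fat had 35.2% Adamts5 and 30.2% Adamts2, and soleus had 10.3% Adamts5 and 14.1% Adamts2.

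Adamts5, a protease of aggrecan and versican, had 1.15, 1.96 and 1.81 FPKM in brown fat, 37.0, 27.4 and 37.3 FPKM in white fat and 3.21, 2.35 and 1.78 FPKM in soleus. White fat lay far above the others, and brown fat overlapped soleus. Brown fat was called lower than soleus in 6 other settings, among them median of ratios scaling (-0.69, adjusted p = 0.0066) and the fit without soleus 3 (-0.52, adjusted p = 0.024). Its log2 fold change was -3.73 (SE 0.18, adjusted p = 1.6e-08) in brown fat against white fat, -0.38 (adjusted p = 0.069) in brown fat against soleus and 3.35 (adjusted p = 1.5e-08) in white fat against soleus. Adamts2, which removes the N-terminal propeptide of fibrillar procollagens, had 2.63, 2.66 and 2.59 FPKM in brown fat, 28.7, 30.3 and 28.1 FPKM in white fat and 3.81, 2.82 and 3.43 FPKM in soleus. The tissues did not overlap, and the log2 fold change was -3.05 (SE 0.09, adjusted p = 8.6e-10) in brown fat against white fat and 2.79 (adjusted p = 3e-10) in white fat against soleus. Brown fat against soleus gave -0.26 (adjusted p = 0.018), and the adjusted p was 0.075 without soleus 1.

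Adamts12, which cuts cartilage oligomeric matrix protein, had 1.57, 1.45 and 1.15 FPKM in brown fat, 6.59, 10.1 and 9.18 FPKM in white fat and 0.693, 0.450 and 0.572 FPKM in soleus. Each tissue lay apart, with white fat highest, and the log2 fold change was -1.997 (SE 0.13, adjusted p = 2.1e-07) in brown fat against white fat, 0.60 (adjusted p = 0.0018) in brown fat against soleus and 2.60 (adjusted p = 1.4e-08) in white fat against soleus. Adamts10, which acts on fibrillin microfibrils, had 2.53, 2.60 and 2.96 FPKM in brown fat, 6.52, 5.43 and 6.62 FPKM in white fat and 2.56, 2.54 and 2.03 FPKM in soleus. Brown fat and soleus overlapped (log2 fold change 0.13, adjusted p = 0.22), with a change of direction to -0.19 under median of ratios scaling. White fat was higher, with -0.96 (SE 0.10, adjusted p = 4.9e-06) in brown fat against white fat and 1.09 (adjusted p = 9.6e-07) in white fat against soleus.

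Adamts1, another protease of versican and aggrecan, was lowest in brown fat. It had 3.08, 4.16 and 2.99 FPKM in brown fat, 5.75, 6.30 and 5.68 FPKM in white fat and 5.84, 6.15 and 6.81 FPKM in soleus. White fat and soleus overlapped (log2 fold change -0.07, adjusted p = 0.53), where TPM rescaling gave 0.45 (adjusted p = 0.0058) and median of ratios scaling -0.45 (adjusted p = 0.0012). Brown fat gave -0.66 (SE 0.10, adjusted p = 0.00018) against white fat and -0.73 (adjusted p = 6.5e-05) against soleus. Adamts1 and Adamts5 are neighbours on chromosome 16 in the RefSeq table and did not share a pattern, since Adamts5 averaged 33.9 FPKM in white fat and 2.45 FPKM in soleus.

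Adamts8 and Adamts15 are neighbours on chromosome 9 and cut the same class of proteoglycans. Adamts8 had 0.0139, 0 and 0.0255 FPKM in brown fat, 0.121, 0.181 and 0.0902 FPKM in white fat and 4.92, 3.85 and 5.46 FPKM in soleus. It was high in soleus alone, with a log2 fold change of -2.49 (adjusted p = 1.9e-09) in brown fat against soleus and -2.34 (adjusted p = 2.9e-09) in white fat against soleus. Adamts15 averaged 0.327 FPKM in brown fat, 3.37 FPKM in white fat and 0.604 FPKM in soleus and was high in white fat alone, with -1.72 (adjusted p = 2e-08) in brown fat against white fat and 1.45 (adjusted p = 3.3e-08) in white fat against soleus. Adamts9, which also cuts versican, followed the fats, with means of 4.07, 4.24 and 0.858 FPKM in brown fat, white fat and soleus. The fats overlapped (log2 fold change -0.04, adjusted p = 0.71), with 0.0572 under quantile normalization and a call of lower, -0.60 (adjusted p = 0.0021), after TPM rescaling; brown fat against soleus gave 1.45 (adjusted p = 7.6e-08). Adamts16 averaged 0.149 FPKM in brown fat, 1.76 FPKM in white fat and 0.0978 FPKM in soleus, with a log2 fold change of -1.22 (adjusted p = 5.7e-05) in brown fat against white fat and 1.29 (adjusted p = 2.4e-05) in white fat against soleus.

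**Figure D5:**
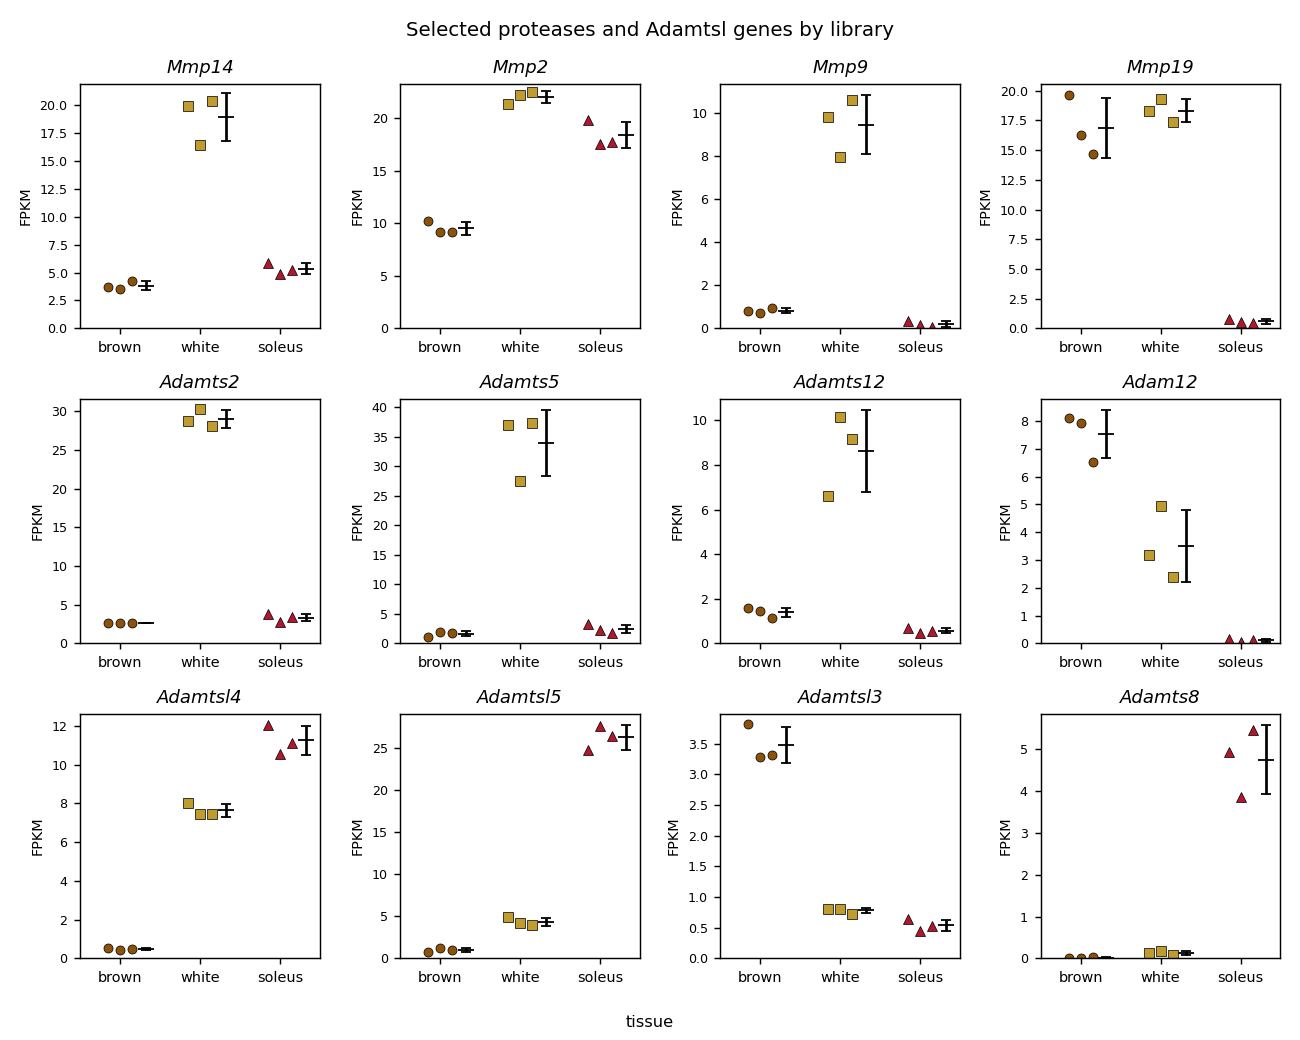
FPKM of 12 of the named genes in each library (points) with the tissue mean (line) and SD (bars), brown fat left, white fat in the middle and soleus right; each panel has its own vertical axis from 0. Mmp19 is alike in both fats and low in soleus, Adam12 and Adamtsl3 are highest in brown fat, Adamts2 and Adamts5 are high in white fat, and Adamts8 and Adamtsl5 are highest in soleus.

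The 4 tested Adamts-like genes had unlike patterns, and their family sum was the one that was highest in soleus, at 5.29 ± 0.104 FPKM in brown fat, 15.03 ± 0.652 FPKM in white fat and 39.4 ± 0.394 FPKM in soleus. Brown fat against white fat gave 1 higher and 3 lower, brown fat against soleus 1 and 2, and white fat against soleus 2 and 2. Of these 4 genes that is 25% and 75%, 25% and 50%, and 50% and 50%. All tested genes gave 38.0% and 34.8%, 52.9% and 25.6%, and 54.5% and 29.7%. Adamtsl1 reached the tested level through white fat alone and Adamtsl3 through brown fat alone. The Adamtsl shares are therefore partly set by that choice. Adamtsl5, a binder of fibrillin and heparin, had 0.760, 1.20 and 1.05 FPKM in brown fat, 4.87, 4.17 and 3.92 FPKM in white fat and 24.7, 27.6 and 26.3 FPKM in soleus. Each tissue lay apart, with soleus highest, and the log2 fold change was -1.41 (SE 0.10, adjusted p = 2.9e-07) in brown fat against white fat, -3.77 (adjusted p = 8.3e-11) in brown fat against soleus and -2.36 (adjusted p = 2.9e-09) in white fat against soleus. Adamtsl4, which binds fibrillin microfibrils, had 0.524, 0.434 and 0.512 FPKM in brown fat, 8.04, 7.45 and 7.46 FPKM in white fat and 12.0, 10.6 and 11.1 FPKM in soleus. Brown fat was far lower, with -2.54 (SE 0.07, adjusted p = 8.2e-10) against white fat and -3.04 (adjusted p = 3.3e-11) against soleus. White fat against soleus gave -0.50 (adjusted p = 5.4e-05), but 0.0016 (adjusted p = 0.99) under TPM rescaling.

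Adamtsl3 was highest in brown fat. It averaged 3.47 ± 0.298 FPKM in brown fat, 0.782 ± 0.0468 FPKM in white fat and 0.540 ± 0.0905 FPKM in soleus (SD, n = 3 each), with a log2 fold change of 1.33 (SE 0.08, adjusted p = 6e-08) in brown fat against white fat and 1.54 (adjusted p = 1e-08) in brown fat against soleus. Adamtsl1 averaged 0.247, 1.64 and 0.219 FPKM in brown fat, white fat and soleus and gave -1.08 (adjusted p = 1.3e-07) in brown fat against white fat and 1.11 (adjusted p = 5.1e-08) in white fat against soleus.

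With selective genes defined as those called at 1 log2 unit or more over each of the other tissues, Adamtsl3 was selective for brown fat. White fat had 13 such genes, Adam23, Adamts2, Adamts5, Adamts12, Adamts15, Adamts16, Adamtsl1, Mmp9, Mmp12, Mmp14, Mmp28, Timp2 and Timp4. Soleus had 3, Adamts8, Adamtsl5 and Timp1. Of all tested genes 6.42%, 10.8% and 8.67% were selective for brown fat, white fat and soleus. Of the 17 selective genes, those named above as reaching the tested level through one tissue alone are selective partly by that choice. The number for brown fat moved with the setting and was 0 with a pseudocount of 5 and 3 with one of 0.1; for white fat it was 7 with a pseudocount of 5 and 20 after TPM rescaling.

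The spread between libraries of the same tissue was compared with that of all tested genes, as a description. Where the tissue mean reached 1 FPKM, the median coefficient of variation was 10.4% over 21 of these genes in brown fat, 11.4% over 30 in white fat and 12.5% over 19 in soleus, against 7.64%, 7.91% and 9.06% over all tested genes with that mean. The genes were not matched for level beyond this limit, and the part of level in the difference was not tested. Soleus 1 held the highest soleus value of 19 of the 33 genes, or 57.6%, against 25.9% of all tested genes. In soleus 1, 2 and 3 the summed adipocyte markers, 6 of 8 listed, were 1425, 887 and 648 FPKM, of which Fabp4 made up 1272, 827 and 617 FPKM and the other 5 markers 153, 60.8 and 30.5 FPKM, and the 7 tendon markers 149.7, 108 and 77.8 FPKM; their part in the spread was not tested. Without soleus 1, 85 of the 87 calls made over the 33 genes and 3 comparisons remained.

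Among genes under the tested level, 16 of 46 were listed at 0 in all 9 libraries, namely Mmp1a, Mmp1b, Mmp10, Mmp20, Adam6a, Adam6b, Adam7, Adam24, Adam25, Adam26a, Adam26b, Adam28, Adam29, Adam30, Adam34 and Adam39. The other 30 were above 0 somewhere, and Mmp7, Adamtsl2 and Adamts14 reached 1 FPKM in at least 1 library. Mmp7, or matrilysin, a protease of epithelia, was listed at 0 in all brown fat libraries, had 7.77, 0.332 and 6.39 FPKM in white fat 1, 2 and 3 and 0.0640, 0 and 0 FPKM in soleus. It was thus high in white fat 1 and 3 and not in white fat 2, where the mesothelium marker sum was 114, 104 and 76.1 FPKM in white fat 1, 2 and 3. Adamtsl2 averaged 0.0744, 0.641 and 1.18 FPKM and Adamts14, a procollagen peptidase like Adamts2, averaged 0.164, 0.907 and 0.472 FPKM in brown fat, white fat and soleus. Adamts4, an aggrecanase like Adamts5, averaged 0.504, 0.684 and 0.276 FPKM. The part of mesothelium in the Mmp7 level was not tested. Mmp7, Mmp12 and Mmp3 belong to a run of 10 neighbouring Mmp genes on chromosome 9, of which Mmp3 and Mmp12 reached the tested level; Mmp3 was highest in brown fat and Mmp12 in white fat.

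The promoters of Mmp3 and Adamts2 are shown for their contrast in base composition, in the same form as those of the Timp genes above.
Mmp3 (chr9:7445572-7445821, plus strand): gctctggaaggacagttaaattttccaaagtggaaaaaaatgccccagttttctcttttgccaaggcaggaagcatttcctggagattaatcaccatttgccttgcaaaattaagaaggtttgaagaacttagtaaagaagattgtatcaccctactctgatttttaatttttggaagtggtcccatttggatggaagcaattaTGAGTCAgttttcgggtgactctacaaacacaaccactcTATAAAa
Adamts2 (chr11:50601835-50602084, plus strand): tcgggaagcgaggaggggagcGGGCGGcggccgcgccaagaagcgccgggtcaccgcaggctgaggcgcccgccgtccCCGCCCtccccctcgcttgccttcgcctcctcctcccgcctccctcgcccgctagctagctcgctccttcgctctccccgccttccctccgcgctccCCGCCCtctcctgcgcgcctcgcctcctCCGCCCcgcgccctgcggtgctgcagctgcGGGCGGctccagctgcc
Mmp3 holds 1 AP-1 motif and 1 TATA motif with 37.6% G and C, and Adamts2 holds 5 GC boxes with 78.0% G and C. Of the 33 tested genes 21 had a listed promoter, and the first window listed for each gene was counted. A GC box stood in 15 of them (71.4%), against 32.9% of all 27025 promoters and 61.1% of the 7855 promoters of tested genes. The CCAAT box stood in 4 (19.0%, against 34.5% and 35.4%), the TATA motif in 2 (9.52%, against 13.0% and 6.59%) and the AP-1 motif in 1 (4.76%, against 6.87% and 4.15%). The E-box letters CANNTG, not capitalised above, stood in 16 (76.2%, against 66.0% and 56.3%). A later listed window of Adam19, and a later listed window of Mmp12, also held the AP-1 motif and were not counted. A match of letters is a description and no sign of binding.

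Lists of other genes of the pathway were followed in the same fit. Of 17 tested regulators (activating proprotein convertases, tetraspanins and inactive rhomboids that escort Adam10 and Adam17, and secreted inhibitors) 5 were higher and 10 lower in brown fat against white fat, 9 higher and 4 lower in brown fat against soleus, and 13 higher and 3 lower in white fat against soleus, with median log2 fold changes of -0.53, 0.27 and 1.07. The brown fat against soleus shares of 52.9% and 23.5% lie near the 52.9% and 25.6% of all tested genes, whose median there was 0.29. Brown fat against white fat gave 29.4% and 58.8%, beside 38.0% and 34.8% of all tested genes. White fat against soleus gave 76.5% and 17.6%, beside 54.5% and 29.7%. The medians over all tested genes were 0.03 and 0.35 in these 2 comparisons. Bsg (basigin, an inducer of Mmp expression) had the highest mean level of the list, at 299 ± 41.0 FPKM in brown fat, 194 ± 13.7 FPKM in white fat and 280.1 ± 6.59 FPKM in soleus. The tetraspanins that escort Adam10 differed in tissue. Tspan15 averaged 9.73, 2.62 and 2.74 FPKM in brown fat, white fat and soleus (log2 fold change 1.55, adjusted p = 9.1e-07, in brown fat against white fat), and Tspan5 averaged 1.67, 12.7 and 1.21 FPKM (-2.36, adjusted p = 1.2e-09). Tspan14 averaged 26.8, 21.8 and 3.84 FPKM in brown fat, white fat and soleus (2.52, adjusted p = 5.3e-10, in brown fat against soleus). Furin, a convertase that activates Mmp14 and the Adam proteases, averaged 24.5, 13.8 and 6.07 FPKM in brown fat, white fat and soleus (0.78, adjusted p = 8.9e-06, in brown fat against white fat).

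Of 18 tested proteases and inhibitors of other classes acting on the matrix 2 were higher and 14 lower in brown fat against white fat. Brown fat against soleus gave 5 and 7, and white fat against soleus 17 and 1. The shares were 11.1% and 77.8%, 27.8% and 38.9%, and 94.4% and 5.56%. All tested genes gave 38.0% and 34.8%, 52.9% and 25.6%, and 54.5% and 29.7%. The medians were -1.82, 0.02 and 1.52, where all tested genes had 0.03, 0.29 and 0.35. Mme (neprilysin, a membrane peptidase) ran against the list and averaged 51.5, 12.5 and 0.628 FPKM in brown fat, white fat and soleus (log2 fold change 1.96, adjusted p = 4.7e-08, in brown fat against white fat). Ctss, a cathepsin of macrophages and other antigen-presenting cells, averaged 4.83, 48.6 and 4.59 FPKM (-3.07, adjusted p = 6.9e-08). Serpine2, an inhibitor of thrombin and plasminogen activators, was highest in soleus, averaging 10.9, 24.1 and 58.9 FPKM in brown fat, white fat and soleus.

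Matrix substrates were lower in brown fat against white fat, and mixed in brown fat against soleus. Of 26 tested, 0 were higher and 25 lower in brown fat against white fat (0% and 96.2%). Brown fat against soleus gave 6 and 12 (23.1% and 46.2%), and white fat against soleus 24 and 1 (92.3% and 3.85%). All tested genes gave 38.0% and 34.8%, 52.9% and 25.6%, and 54.5% and 29.7%. The median log2 fold changes were -1.998, -0.24 and 1.97, beside 0.03, 0.29 and 0.35 over all tested genes. Fn1 (fibronectin) averaged 5.17, 129.9 and 14.3 FPKM in brown fat, white fat and soleus (-4.40, adjusted p = 2.2e-09, in brown fat against white fat), and Dcn (decorin), which the fibroblast list holds too, averaged 98.2, 746 and 205 FPKM. Comp, the cartilage oligomeric matrix protein that Adamts12 cuts, averaged 0.0513, 0.152 and 6.31 FPKM and was the substrate called lower in white fat against soleus (-2.59, adjusted p = 9.4e-07). The tendon list holds Comp too, which had 9.65, 5.58 and 3.70 FPKM in soleus 1, 2 and 3. The substrates of shedding were mixed, with 7 of 22 higher and 11 lower in brown fat against white fat, 13 higher and 5 lower in brown fat against soleus, and 13 higher and 6 lower in white fat against soleus, and medians of -0.20, 0.58 and 1.12. The shares higher, 59.1% in brown fat and 59.1% in white fat against soleus, lie near the 52.9% and 54.5% of all tested genes. In brown fat against white fat 31.8% were higher and 50% lower, beside 38.0% and 34.8% of all tested genes. App, a substrate of Adam10, averaged 28.1, 156 and 25.6 FPKM in brown fat, white fat and soleus (-2.44, adjusted p = 1.6e-09, in brown fat against white fat), while Cdh2 (N-cadherin), another substrate of Adam10, averaged 7.12, 0.194 and 0.273 FPKM (2.77, adjusted p = 6.2e-10).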

How the data were processed

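The authors deposited one matrix of FPKM values, made with TopHat 1.4.1 and Cufflinks 2.0.1 on mm9 per the submitters' processing notes, from TRIzol RNA and Illumina TruSeq version 2 libraries per the labels' protocols. FPKM holds no read counts, so depth is relative only. RefSeq accessions of 18401 rows were matched to symbols, 18305 in a RefSeq table of GRCm38.p6 and 38 in a GENCODE table; 55 rows without a symbol and 3 with several (0.0339% to 0.360% of FPKM) were left out, and 541 symbols with several rows were summed. Adam15, Adam1a, Adam20, Adam34l, Adam8 and Mmp23 matched no row and were not analysed here. Genes with near-identical copies are uncertain.

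All 9 libraries were fitted on log2(FPKM + 1) in limma 3.58.1 (R 4.3.3) with a mean-variance trend, 6 residual degrees of freedom and two-sided tests, over the 9913 genes that reached 1 FPKM in no fewer than 3 libraries, with Benjamini-Hochberg adjustment per comparison and a threshold of 0.05. The fit was tested on simulated data. Genes with a tissue mean of at least 5 FPKM are given by library, others by mean; of the other lists, the highest gene and those with the largest changes could be named, and those shown were picked from these. The genes, lists and tests were chosen with earlier results of these data known. Whether libraries with the same number share a mouse is not given. Promoters came from RefSeq and matched 21 of the 33 genes; a planned search of protein sequences was not run. In all, 22 alternatives were computed. Figures used matplotlib 3.10.9.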

Additional observations from a re-analysis of the deposited data

How the results depend on the processing

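Of the 87 calls, 80 to 87 remained under each of 21 alternatives, and the 75 still tested with a filter on the mean of at least 1 FPKM all remained. Without a filter on low values 19 genes were lower in brown fat against soleus (12 as reported) and 8 in white fat against soleus (5 as reported; 3 after TPM rescaling). The number selective for brown fat, 1 as reported, was 3 with a pseudocount of 0.1, 0 with one of 5, 2 under quantile normalization and 2 under array weights, and ran from 1 to 2 when 1 library was left out, with 2 without brown fat 3 or white fat 2. The number selective for soleus was 1 (3 as reported) and for white fat 7 (13 as reported) with a pseudocount of 5; TPM rescaling gave 20 for white fat. Scaling moved all genes. The median log2 fold change in brown fat against white fat was 0.03 as reported and -0.50 after TPM rescaling, with 52.2% and 22.6% of calls higher; in brown fat against soleus it was 0.29 and, by median of ratios, -0.04, with 67.4% and 47.5%; in white fat against soleus it was 0.35, 0.01 by median of ratios and 0.93 after TPM rescaling, with 64.7%, 50.1% and 78.8%. These genes were then 4 higher and 29 lower (brown fat against white fat, TPM), 12 and 15 (brown fat against soleus, median of ratios) and 23 and 6 (white fat against soleus, median of ratios).

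The direction of small differences changed, and the cause was not tested. In brown fat against white fat, Adam17 (0.0091) became -0.56 after TPM rescaling (adjusted p = 0.0012), -0.0931 by upper quartile, -0.0028 by median of ratios and -0.0395 by quantiles, and Adamts9 (-0.04) became 0.0572 by quantiles and 0.0498 under array weights. In brown fat against soleus, by upper quartile, median of ratios and quantiles, Adamts10 became -0.11, -0.19 and -0.10 and Mmp15 -0.0193, -0.10 and -0.0379; Adamtsl1 became -0.0324 and -0.0532 by the first of these methods and the next; Mmp12 became 0.0715 by quantiles. In white fat against soleus, Adamts1 (0.45) and Adamtsl4 (0.0016) turned after TPM rescaling, Adamtsl3 (-0.14) by quantiles and Mmp2 (-0.17) by median of ratios. With 1 library left out, Adam17 ran from -0.0358 to 0.0785 and Adamts9 from -0.13 to 0.0519 in brown fat against white fat, and Mmp12 from -0.0384 to 0.0047 and Timp4 from -0.19 to 0.0159 in brown fat against soleus.

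Residuals of libraries of different tissues correlated at -0.22 to 0.077 for the same replicate number and -0.189 to 0.361 for different ones. With 3 libraries per tissue, these values cannot show whether libraries with the same number share a mouse. With a replicate block 86 of 87 calls remained; Mmp15 in brown fat against soleus was lost (adjusted p = 0.052). FPKM without counts sets no counting error, so values under 1 FPKM are the least certain.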
